A study of Homo sapiens with 15 samples.

Results

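The 47 genes described here are the Wnt ligands, the receptors that bind them and the genes that hold the pathway in check or carry it into the nucleus. They were taken by gene symbol from a fixed list of 10 ligands, 16 receptors and co-receptors, 9 secreted antagonists, the DKK1 receptor KREMEN1 counted with them, 7 intracellular feedback regulators and membrane ligases, and 5 nuclear effectors. All 47 were found among the 61533 gene identifiers of the count table. Of the 18391 genes that passed a filter on low counts and were tested, 43 belonged to this set. The other 4 were counted at most 7 times (WNT10A), 4 times (SFRP2), 18 times (WIF1) and 11 times (SP5) in any library and were not tested. Every member has its own values below or falls in a stated range.

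The study asked what an oncogenic fusion of YAP and MAML2 does to the transcriptome when it is gathered in nuclear condensates and when it is dispersed. PolyA RNA was sequenced from HEK293T cells, an established human embryonic kidney line, with 3 libraries in each of 5 groups. The diffuse and condensed groups were the same SPARK-OFF line, which carries YAP-MAML2 tagged with FKBP and mEGFP plus a nuclear mCherry joined to Frb, and were given rapamycin or DMSO for 5 h. Rapamycin bridges FKBP and Frb, so that the soluble mCherry is recruited to the fusion and the condensates dissolve. The no-mCherry groups were a separate line with the tagged fusion but without the mCherry partner, given rapamycin or DMSO for 5 h. The eGFP group was mock-treated for a time that is not given, so each fusion group differs from it by the engineered line and by rapamycin or DMSO as well as by the fusion. Whether a line was a clone or a pool, what drives the fusion's expression, and whether the 3 libraries of a group came from separate cultures are not given in the labels or the methods, so the p-values measure only the spread between libraries, which may be technical.

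Wnt proteins are secreted ligands that bind Frizzled receptors together with the co-receptors LRP5 or LRP6 and so keep beta-catenin from being degraded, and beta-catenin then enters the nucleus and acts with TCF and LEF factors on its targets. The pathway is held in check outside the cell by DKK, SFRP and related proteins that occupy the co-receptors or the ligands, at the membrane by the ligases RNF43 and ZNRF3 that remove Frizzled, and inside the cell by AXIN2 and the NKD proteins. Other Wnt proteins, with WNT5A as the best known, signal through ROR receptors without beta-catenin. YAP works through TEAD factors and shares the cytoplasmic beta-catenin destruction complex with Wnt signalling.

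Libraries held 14720387 to 24797509 counts. The third library of the no-mCherry DMSO group had the lowest mean correlation with its own group, 0.9815 against 0.9818 to 0.9887 for the other 14, and it lay apart from the other libraries of that group for several Wnt genes. MAML2 averaged 540.0 ± 31.6 CPM (depth-scaled counts, TMM) in diffuse cells, 415 ± 23.9 in condensed cells, 243 ± 15.7 in no-mCherry cells with rapamycin, 220 ± 19.3 in no-mCherry cells with DMSO and 3.63 ± 0.782 in eGFP cells (SD, n = 3 each), so every fusion group carried the transgene and the SPARK-OFF line more of its RNA than the no-mCherry line. Counts of mitochondrial genes took 2.86 to 3.33% of the SPARK-OFF libraries and 3.67 to 3.93% of the others. Of 12 defining markers of blood, endothelium, liver, melanocytes and muscle, 1 was never counted and the list summed to 13.7 to 18.8 CPM in a library, while 6 genes known to be expressed in HEK293 summed to 280 to 285 CPM in diffuse, 268 to 285 in condensed, 366 to 396 in no-mCherry rapamycin, 315 to 366 in no-mCherry DMSO and 448 to 481 in eGFP libraries. The sum of this second list moved with the groups compared below, but its members did not all go the same way. NEFM, NEFL, PAX2 and LHX1 averaged lower in each fusion group than in eGFP cells. INA averaged higher in each, at 50.5 CPM in diffuse, 58.8 in condensed and 38.9 in eGFP cells. VIM was lower in all but no-mCherry rapamycin cells (218 CPM, against 217 in eGFP cells). The part of this list in the results was not tested. In bulk RNA, fewer cells of a type and less RNA per cell cannot be told apart.

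Against the eGFP cells, the inhibitor DKK1 and the receptor FZD6 were higher and the receptors FZD4 and ROR1 and the feedback gene NKD1 were lower in all 4 fusion groups. In diffuse cells 9 of the 43 tested Wnt genes were higher and 10 lower than in eGFP cells at an adjusted p under 0.05 (edgeR's quasi-likelihood test with Benjamini-Hochberg adjustment over all genes tested), where 23.9% of all genes were called, 11.4% higher and 12.5% lower. In condensed cells 7 were higher and 13 lower, against 27.1% of all genes, 13% higher and 14.1% lower. In no-mCherry cells with rapamycin 4 were higher and 7 lower, against 16.4% of all genes, 7.62% higher and 8.79% lower. In no-mCherry cells with DMSO 5 were higher and 9 lower, against 13.5%, 7.08% higher and 6.41% lower. The called share of the set was 44.2% in diffuse, 46.5% in condensed, 25.6% in no-mCherry rapamycin and 32.6% in no-mCherry DMSO cells. The median log2 fold change of the set was -0.11 in diffuse, -0.23 in condensed, -0.07 in no-mCherry rapamycin and -0.22 in no-mCherry DMSO cells, beside a median of all genes of 0.01 in diffuse, 0.00 in condensed, 0.01 in no-mCherry rapamycin and 0.01 in no-mCherry DMSO cells.

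By the rule of the study (unadjusted p under 0.01, a change of at least 0.58 and a false discovery rate under 0.1) 12 members were called in condensed cells, beside 13.2% of all genes, and 7 in no-mCherry cells with rapamycin, beside 7.47%. The same rule called 15 in diffuse and 12 in no-mCherry DMSO cells, where its share over all genes was not computed, so these counts cannot be weighed. The 4 comparisons share the eGFP libraries, so a gene that stands high or low there moves in all of them. Besides the 5 genes called in all 4 groups, 8 were higher in 1 to 3 groups, 16 were lower in 1 to 3 groups, 14 were called in none and 0 were called in both directions. Without the third no-mCherry DMSO library the count for that group over eGFP was 6, against 14 with it. Each call was repeated under 11 alternatives, namely other size factors, DESeq2, no filter on low counts, the replicate number as a block, only the compared groups in the fit, and each of the 6 compared libraries left out in turn.

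**Figure D1:**
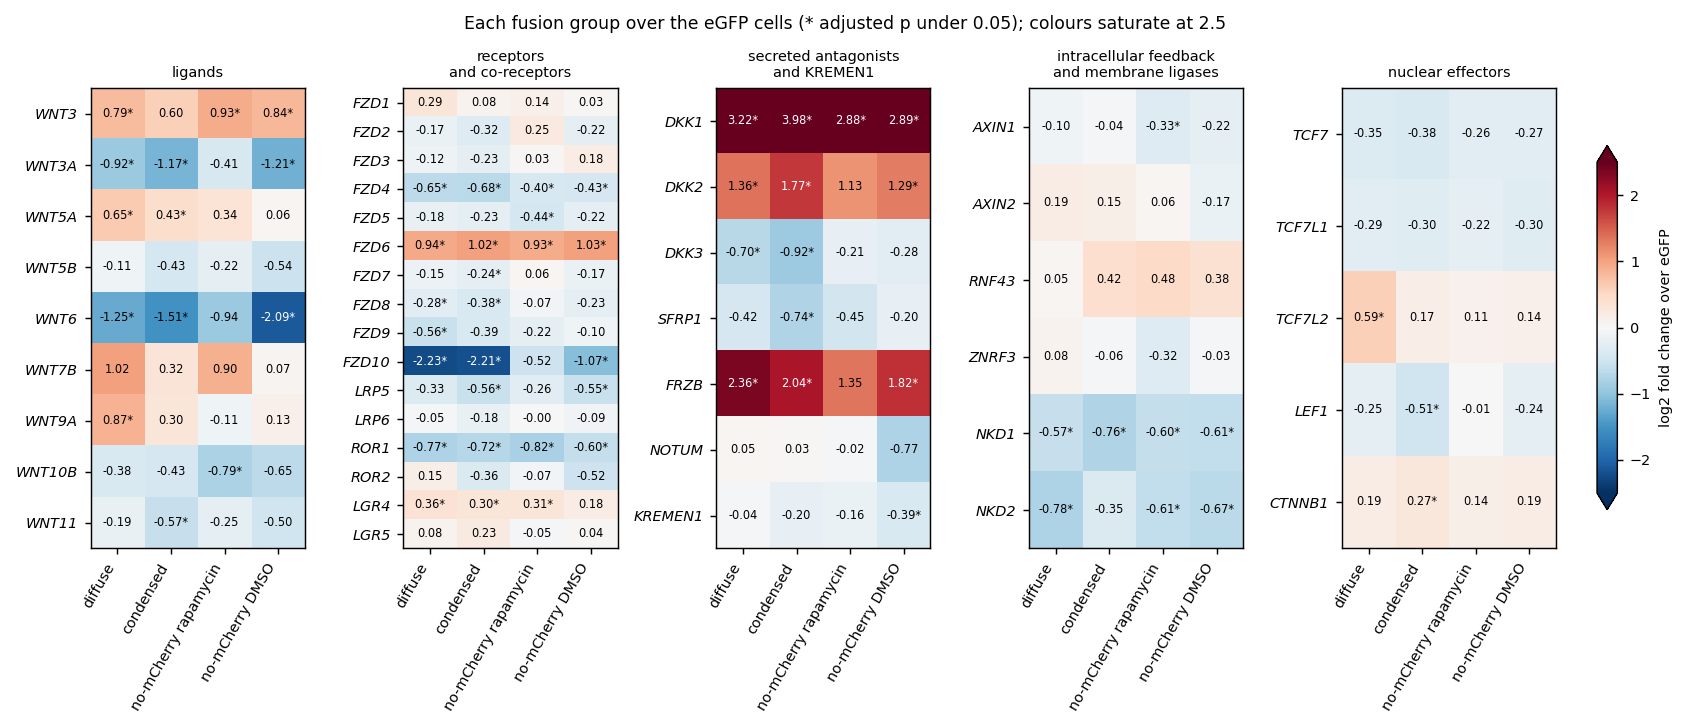
Log2 fold change of each of the 43 tested Wnt genes over the eGFP cells in the 4 fusion groups (columns), by role, with an asterisk where the adjusted p was under 0.05. DKK1 reaches 3.98 in condensed cells and lies beyond the colour scale in all 4 columns, and FZD10 reaches -2.23 in diffuse and -2.21 in condensed cells.

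Among the ligands, the beta-catenin activators did not move one way: WNT3 was higher, WNT3A, WNT6 and WNT10B were lower and the noncanonical ligand WNT5A was higher in at least 1 fusion group. Of the 9 tested ligands, 3 were higher and 2 lower in diffuse cells, 1 higher and 3 lower in condensed cells, 1 higher and 1 lower in no-mCherry cells with rapamycin, and 1 higher and 2 lower in no-mCherry cells with DMSO, all over eGFP.

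WNT5A, which is known for ROR-dependent signalling in cell movement and polarity, had 66.9, 61.3 and 62.8 CPM in diffuse and 49.3, 58.5 and 56.3 in condensed cells. For WNT5A, the no-mCherry libraries had 52.3, 46.2 and 55.7 CPM with rapamycin and 50.6, 46.6 and 29.4 with DMSO, and eGFP cells had 39.6, 44.8 and 37.1. The diffuse libraries stood above all others and the condensed ones above eGFP, while the no-mCherry DMSO libraries overlapped eGFP, with the third library below it. The log2 fold change over eGFP was 0.65 in diffuse (SE 0.14, adjusted p = 0.00145, edgeR) and 0.43 in condensed cells (SE 0.14, adjusted p = 0.0240, edgeR), and diffuse did not differ from condensed by the test (0.22, SE 0.14). Leaving out 1 of 4 libraries in turn took the condensed call to an adjusted p of up to 0.0996.

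WNT9A, a ligand known from joint and blood stem cell development, stood out in diffuse cells with 5.48, 4.95 and 6.299 CPM, against 3.57, 4.53 and 3.15 in condensed, 2.89, 2.99 and 2.63 in no-mCherry rapamycin, 3.57, 3.75 and 2.69 in no-mCherry DMSO and 3.69, 2.95 and 2.51 in eGFP cells. The 3 diffuse libraries overlapped none of the other 12. It was higher in diffuse than in eGFP cells by a log2 fold change of 0.87 (SE 0.22, adjusted p = 0.00482, edgeR) and kept that call under all 11 alternatives. Its difference of 0.57 from condensed cells (SE 0.21) had an unadjusted p of 0.0115 and an adjusted p of 0.678. WNT3, an activator of beta-catenin signalling, had 3.06, 2.39 and 2.06 CPM in diffuse and 2.65, 2.10 and 1.74 in condensed cells. The no-mCherry line had WNT3 at 2.78, 2.63 and 2.79 CPM with rapamycin and 3.09, 2.18 and 2.46 with DMSO, and eGFP cells had 1.25, 1.65 and 1.39. All 12 fusion libraries lay above all 3 eGFP libraries, at fold changes of 0.79 in diffuse, 0.60 in condensed, 0.93 in no-mCherry rapamycin and 0.84 in no-mCherry DMSO on the log2 scale. The adjusted p was 0.0400 in diffuse, 0.116 in condensed, 0.0240 in no-mCherry rapamycin and 0.0496 in no-mCherry DMSO cells (edgeR), and each of the 3 calls was lost under 6 to 8 of 11 alternatives. Without the third no-mCherry DMSO library that group was at 0.87 with an adjusted p of 0.114.

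WNT3A, another activator, had 3.57, 3.10 and 3.13 CPM in diffuse and 3.18, 2.82 and 2.19 in condensed cells. WNT3A in no-mCherry cells was at 3.33, 5.62 and 5.03 CPM with rapamycin and 3.78, 3.16 and 1.17 with DMSO, and eGFP cells had 7.06, 4.19 and 7.39. Diffuse, condensed and no-mCherry DMSO libraries lay below all eGFP libraries, and the no-mCherry rapamycin ones overlapped them. The log2 fold change over eGFP was -0.92 in diffuse (adjusted p = 0.0250, edgeR), -1.17 in condensed (adjusted p = 0.00586) and -1.21 in no-mCherry DMSO cells (adjusted p = 0.0127), and the last was -0.84 with an adjusted p of 0.0685 without the third library. The diffuse call was lost under 4 of 11 alternatives. WNT6, also an activator, was counted 5 to 48 times in a library and averaged 1.15 ± 0.626 CPM in diffuse, 0.947 ± 0.481 in condensed, 1.41 ± 0.527 in no-mCherry rapamycin, 0.650 ± 0.459 in no-mCherry DMSO and 2.72 ± 0.181 in eGFP cells (SD, n = 3 each). Every fusion library, the highest at 1.97 CPM, lay below the lowest eGFP library at 2.51 CPM. The fold change of -2.09 in no-mCherry DMSO cells held without the third library (-1.74, adjusted p = 0.0441, edgeR), while those in diffuse (-1.25) and condensed cells (-1.51) were lost under 5 and 2 of 11 alternatives.

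WNT10B, which is known for holding back fat cell formation, had 10.03, 7.56 and 9.98 CPM in diffuse and 7.13, 9.72 and 10.03 in condensed cells. For WNT10B, the no-mCherry libraries had 8.22, 5.37 and 7.28 CPM with rapamycin and 8.11, 10.4 and 4.45 with DMSO, and eGFP cells had 12.995, 12.1 and 10.9. All 12 fusion libraries were below eGFP, but only no-mCherry cells with rapamycin passed the test (log2 fold change -0.79, SE 0.22, adjusted p = 0.0184, edgeR), a call lost under 3 of 11 alternatives. WNT11, which acts in noncanonical signalling, averaged 9.17 ± 0.447 CPM in diffuse, 6.96 ± 1.43 in condensed, 8.76 ± 0.786 in no-mCherry rapamycin, 7.40 ± 1.74 in no-mCherry DMSO and 10.4 ± 2.41 in eGFP cells (SD, n = 3 each). It was called in condensed cells alone (-0.57, adjusted p = 0.0288), with libraries that overlapped eGFP, and that call was lost under 4 of 11 alternatives. WNT5B and WNT7B passed in none of the 4 comparisons, at log2 fold changes of -0.54 to 1.02.

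**Figure D2:**
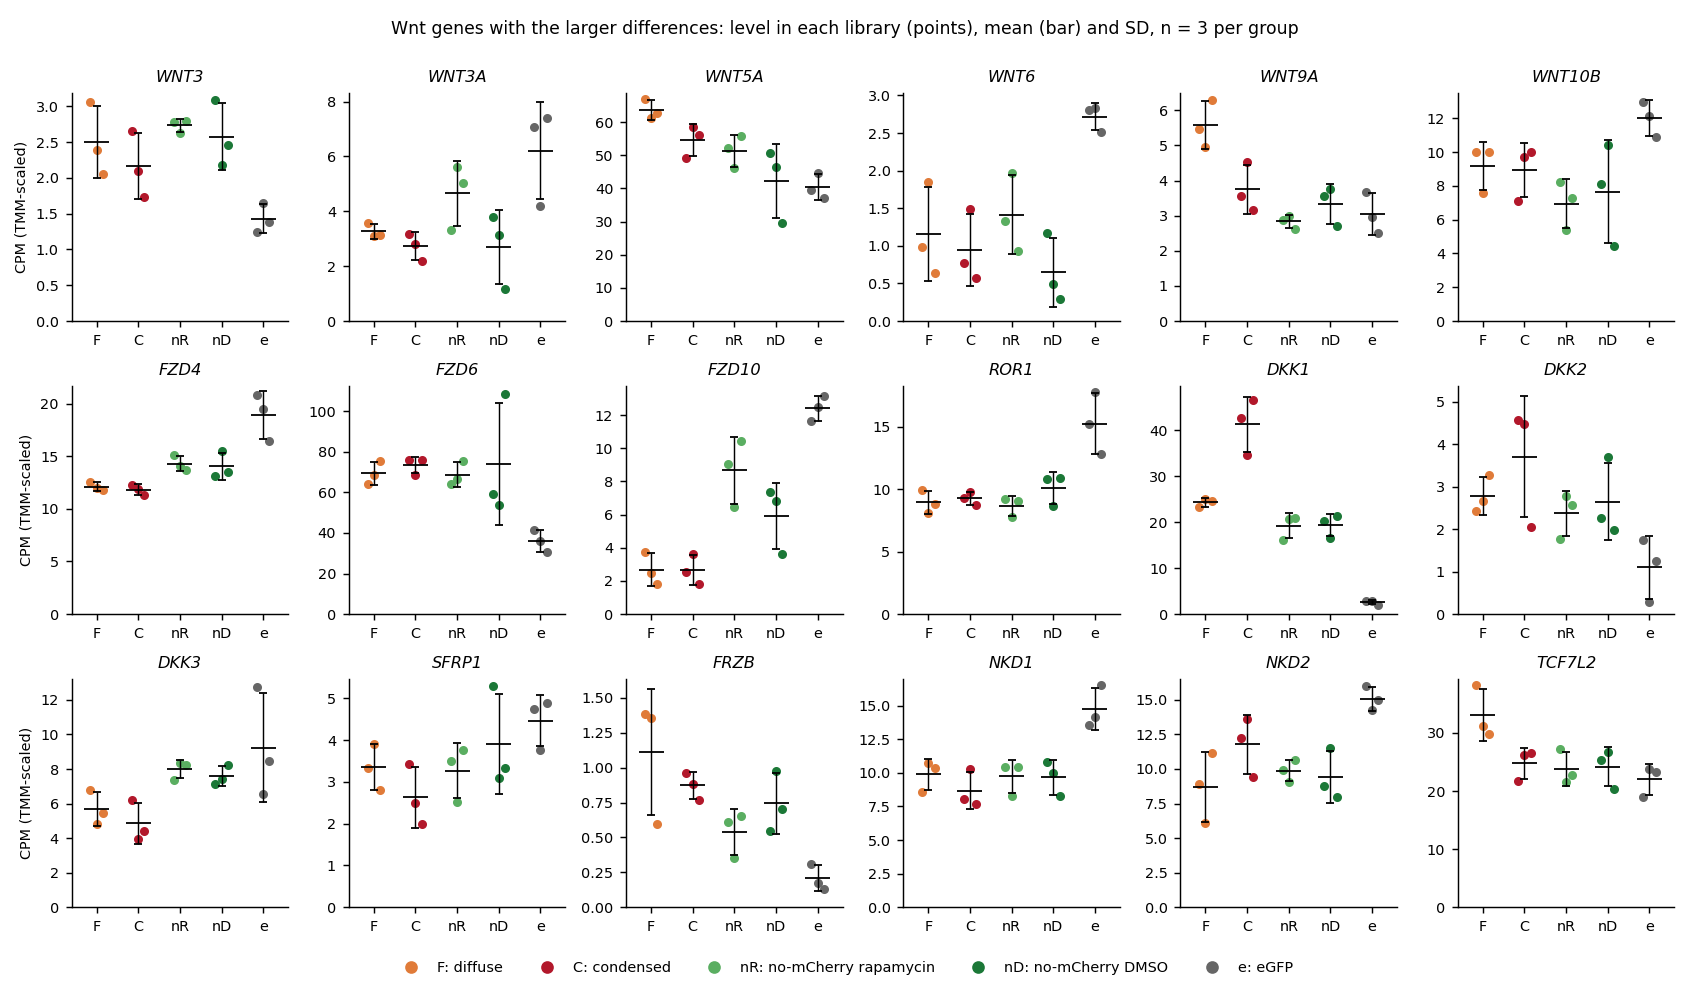
Level of 18 Wnt genes in each of the 15 libraries (points, CPM scaled by TMM, axes from 0), with the mean and SD of each group of 3 libraries. DKK1 is highest in condensed cells at 34.7 to 46.6 CPM and lowest in eGFP cells at 2.05 to 2.94 CPM, and the third no-mCherry DMSO library stands apart for FZD6 at 108 CPM.

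Among the receptors, FZD6 was higher in all 4 fusion groups and FZD10 lower in all but no-mCherry cells with rapamycin, and the make-up of the Frizzled transcripts differed from that in eGFP cells. Of the 16 receptor and co-receptor genes, all of which were tested, 2 were higher and 5 lower in diffuse cells, 2 higher and 6 lower in condensed cells, 2 higher and 3 lower in no-mCherry cells with rapamycin, and 1 higher and 4 lower in no-mCherry cells with DMSO.

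FZD6 (chr8:103298433-103332866, plus strand, hg38), a Frizzled receptor known for its part in planar cell polarity and hair and nail formation, had 64.1, 68.7 and 75.4 CPM in diffuse and 75.8, 68.7 and 75.9 in condensed cells. The no-mCherry line had FZD6 at 64.1, 66.4 and 75.5 CPM with rapamycin and 59.1, 53.9 and 108 with DMSO, and eGFP cells had 41.5, 36.3 and 30.6. All 12 fusion libraries lay above all 3 eGFP libraries. The log2 fold change was 0.94 in diffuse (SE 0.18, adjusted p = 0.000430, edgeR) and 1.02 in condensed cells (SE 0.18, adjusted p = 0.000164). In no-mCherry cells it was 0.93 with rapamycin (SE 0.18, adjusted p = 0.000960) and 1.03 with DMSO (SE 0.18, adjusted p = 0.000771), and each call was kept under all 11 alternatives. Without the third no-mCherry DMSO library the last of these was 0.64 (adjusted p = 0.000652), and condensed cells were then higher than no-mCherry cells with DMSO by 0.38 (adjusted p = 0.0302), a difference of -0.01 with all libraries.

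FZD10 (chr12:130162459-130165740, plus strand), a Frizzled receptor with restricted expression in adult tissues, had 3.75, 2.501 and 1.82 CPM in diffuse and 2.55, 3.65 and 1.80 in condensed cells. FZD10 in no-mCherry cells was at 9.05, 6.48 and 10.4 CPM with rapamycin and 7.35, 6.80 and 3.63 with DMSO, and eGFP cells had 11.6, 12.5 and 13.1. The 12 fusion libraries were all below eGFP, and the SPARK-OFF libraries were below the no-mCherry rapamycin ones. The log2 fold change over eGFP was -2.23 in diffuse (SE 0.27, adjusted p = 2.71e-06, edgeR), -2.21 in condensed (SE 0.27, adjusted p = 3.15e-06), -1.07 in no-mCherry DMSO (SE 0.25, adjusted p = 0.00864) and -0.52 in no-mCherry rapamycin cells (SE 0.24, adjusted p = 0.154). Without the third library, no-mCherry DMSO cells differed from eGFP by -0.81 (adjusted p = 0.0457).

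FZD4, a receptor for Norrin as well as for Wnt proteins, had 12.6, 11.96 and 11.8 CPM in diffuse and 12.3, 11.9 and 11.3 in condensed cells. For FZD4, the no-mCherry libraries had 15.1, 14.1 and 13.7 CPM with rapamycin and 13.1, 15.5 and 13.5 with DMSO, and eGFP cells had 20.8, 19.5 and 16.4. It was below eGFP in all 12 fusion libraries, by log2 fold changes of -0.65 in diffuse (SE 0.12, adjusted p = 0.000432, edgeR) and -0.68 in condensed cells (SE 0.12, adjusted p = 0.000246). It came to -0.40 in no-mCherry cells with rapamycin (SE 0.12, adjusted p = 0.0236) and -0.43 with DMSO (SE 0.12, adjusted p = 0.0226). The calls in the SPARK-OFF line were kept under all 11 alternatives and those in the no-mCherry line lost under 5 and 6 of them, the last at an adjusted p of 0.0766 without the third DMSO library. ROR1, the receptor tyrosine kinase that binds WNT5A, had 9.92, 8.10 and 8.83 CPM in diffuse and 9.25, 9.78 and 8.74 in condensed cells. The no-mCherry line had ROR1 at 9.22, 7.75 and 9.03 CPM with rapamycin and 10.8, 8.65 and 10.9 with DMSO, and eGFP cells had 15.2, 17.7 and 12.8. No fusion library reached the lowest eGFP library, and the log2 fold changes were -0.77 in diffuse (adjusted p = 0.000539, edgeR) and -0.72 in condensed cells (adjusted p = 0.000887). In no-mCherry cells it was -0.82 with rapamycin (adjusted p = 0.000616) and -0.60 with DMSO (adjusted p = 0.0111), the DMSO call being lost under 2 of 11 alternatives. So WNT5A and ROR1 moved in opposite directions in the SPARK-OFF line over eGFP.

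The other receptor genes moved by less than 0.58 on the log2 scale. LGR4, a receptor for R-spondins, which raise Wnt signalling, averaged 114 ± 1.74 CPM in diffuse, 110 ± 3.68 in condensed, 110 ± 12.4 in no-mCherry rapamycin, 101 ± 4.90 in no-mCherry DMSO and 88.7 ± 9.47 in eGFP cells (SD, n = 3 each). It was higher by 0.36 in diffuse (adjusted p = 0.00791, edgeR), 0.30 in condensed (adjusted p = 0.0197) and 0.31 in no-mCherry rapamycin cells (adjusted p = 0.0292). These LGR4 calls were lost under 1, 4 and 3 of 11 alternatives in that order. LRP5, a co-receptor, averaged 51.4 ± 4.35 CPM in diffuse, 43.98 ± 3.84 in condensed, 54.1 ± 4.61 in no-mCherry rapamycin, 44.1 ± 10.9 in no-mCherry DMSO and 64.7 ± 7.16 in eGFP cells (SD, n = 3 each). It was lower, at -0.56 in condensed (adjusted p = 0.00378) and -0.55 in no-mCherry DMSO cells (adjusted p = 0.0109), the no-mCherry DMSO call being at an adjusted p of 0.0502 without the third library. Its partner LRP6 passed in none, at -0.18 to -0.0050. FZD5 was lower in no-mCherry rapamycin (-0.44), FZD7 in condensed (-0.24), FZD8 in diffuse (-0.28) and condensed (-0.38) and FZD9 in diffuse cells (-0.56). Under the 11 alternatives the FZD5 call was lost in 2, the FZD7 call in 7, the FZD8 call in 6 in diffuse and 0 in condensed cells, and the FZD9 call in 1. FZD1, FZD2, FZD3, ROR2 and LGR5 passed in none, at -0.52 to 0.29.

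Per kb of exon, which allows genes to be set beside each other, FZD6 had 17.1 CPM per kb in diffuse, 18.1 in condensed, 16.9 in no-mCherry rapamycin, 18.1 in no-mCherry DMSO and 8.89 in eGFP cells, so it led the 10 Frizzled genes in the 4 fusion groups and lay below FZD7 (12.8), FZD8 (11.04) and FZD2 (9.16) in eGFP cells. Its share of the summed Frizzled level was 26.5 ± 1.95% in diffuse, 28.6 ± 1.18% in condensed, 23.1 ± 0.761% in no-mCherry rapamycin, 25.9 ± 7.38% in no-mCherry DMSO and 13.2 ± 1.41% in eGFP cells (SD, n = 3 each), and the no-mCherry DMSO libraries held 22.4, 20.8 and 34.3%. The summed level itself was 64.4 ± 1.01 CPM per kb in diffuse, 63.0 ± 1.23 in condensed, 73.2 ± 3.99 in no-mCherry rapamycin, 68.7 ± 7.77 in no-mCherry DMSO and 67.1 ± 3.20 in eGFP cells, so it differed between groups by less than the FZD6 share did. FZD10 held the lowest level of the 10 at 0.820 CPM per kb in diffuse, 0.812 in condensed and 1.81 in no-mCherry DMSO cells, against 3.78 in eGFP cells, where FZD4 was lowest at 2.56. FZD6 overlaps the antisense RNA BAALC-AS1 and FZD4 overlaps PRSS23 on the other strand, and since the strand setting of the counting is not given, reads shared with such neighbours cannot be told apart.

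**Figure D3:**
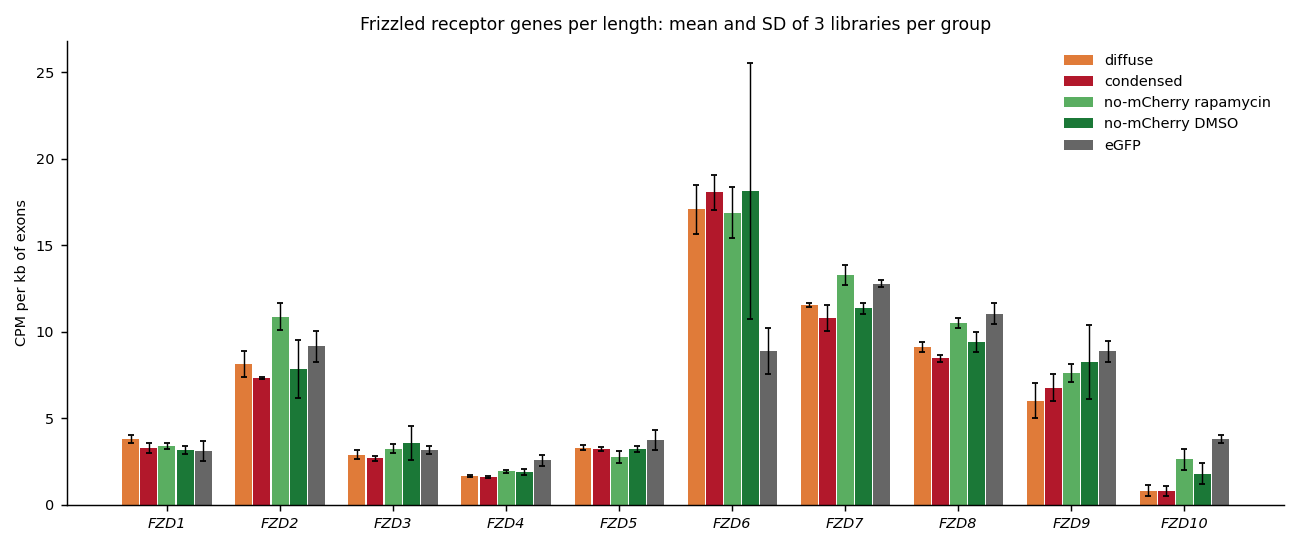
Mean level of the 10 Frizzled genes in each group in CPM per kb of exons (bars from 0), with the SD of 3 libraries. FZD6 reaches 16.9 to 18.1 in the 4 fusion groups and 8.89 in eGFP cells, and its SD is largest in no-mCherry DMSO cells.

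The secreted antagonists included DKK1, which had the largest fold change of the 43 tested genes in each of the 4 fusion groups. Of the 7 tested genes, 3 were higher and 1 lower in diffuse cells, 3 higher and 2 lower in condensed cells, 1 higher and 0 lower in no-mCherry cells with rapamycin, and 3 higher and 1 lower in no-mCherry cells with DMSO. DKK1, DKK2 and FRZB were higher, and DKK3 and SFRP1 lower, in at least 1 group.

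DKK1 (ENSG00000107984.10, chr10:52314281-52318042, plus strand) encodes a secreted protein that binds LRP5 and LRP6 and blocks Wnt signalling, and it is itself a known target of beta-catenin. It had 23.2, 25.1 and 24.6 CPM in diffuse cells, 42.7, 34.7 and 46.6 in condensed cells, 16.1, 20.8 and 21.0 in no-mCherry cells with rapamycin, 20.3, 16.6 and 21.3 in no-mCherry cells with DMSO and 2.94, 2.83 and 2.05 in eGFP cells. The condensed libraries were the highest, the diffuse ones lay between them and all no-mCherry ones, and the eGFP ones were the lowest, with no overlap between any of these 4 levels. Over eGFP the log2 fold change was 3.22 in diffuse (SE 0.17, adjusted p = 1.53e-12, edgeR) and 3.98 in condensed cells (SE 0.17, adjusted p = 1.84e-14). It came to 2.88 in no-mCherry cells with rapamycin (SE 0.17, adjusted p = 3.82e-11) and 2.89 with DMSO (SE 0.17, adjusted p = 3.71e-11). In linear terms DKK1 was 9.29-fold higher in diffuse, 15.8-fold in condensed, 7.36-fold in no-mCherry rapamycin and 7.41-fold in no-mCherry DMSO cells, and each was called under all 11 alternatives. DKK1 overlaps the antisense RNA PRKG1-AS1 over 227 bases. Condensed over eGFP placed DKK1 22nd by p and 131st by size of change among the 18391 genes tested.

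The windows before the start sites of DKK1, FRZB and SP5 are shown because DKK1 and FRZB rose over eGFP and SP5 is a classic beta-catenin target. They come from RefSeq on GRCh38.p14, run from 250 bases before to 50 bases after the annotated start, and are DKK1 at chr10:52314031-52314330 (plus strand), FRZB at chr2:182866588-182866887 (minus strand) and SP5 at chr2:170715087-170715386 (plus strand). Capitals mark the TEAD motif CATTCC (or GGAATG on the other strand) and the TCF/LEF motif CTTTGA (or TCAAAG).
DKK1: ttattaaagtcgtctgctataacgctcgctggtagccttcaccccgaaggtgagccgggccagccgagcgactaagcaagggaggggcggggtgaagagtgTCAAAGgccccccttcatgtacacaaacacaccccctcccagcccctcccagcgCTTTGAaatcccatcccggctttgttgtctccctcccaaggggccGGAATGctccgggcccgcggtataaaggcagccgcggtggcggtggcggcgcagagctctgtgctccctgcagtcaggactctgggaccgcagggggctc
FRZB: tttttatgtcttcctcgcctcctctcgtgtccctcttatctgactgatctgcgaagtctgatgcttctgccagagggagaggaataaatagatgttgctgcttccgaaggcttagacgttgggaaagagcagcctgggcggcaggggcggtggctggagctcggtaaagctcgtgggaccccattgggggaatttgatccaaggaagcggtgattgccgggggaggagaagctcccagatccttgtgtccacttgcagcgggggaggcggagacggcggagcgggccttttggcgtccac
SP5: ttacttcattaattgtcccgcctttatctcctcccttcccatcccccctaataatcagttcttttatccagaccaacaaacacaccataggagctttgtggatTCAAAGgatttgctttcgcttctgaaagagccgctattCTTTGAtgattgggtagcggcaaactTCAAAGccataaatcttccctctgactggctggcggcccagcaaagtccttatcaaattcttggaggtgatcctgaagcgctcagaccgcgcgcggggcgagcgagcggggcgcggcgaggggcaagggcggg

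Both strands were searched and the motifs do not overlap each other. In DKK1 the TEAD motif starts 50 bases before the start site on the minus strand, and the TCF/LEF motif starts 149 bases before it on the minus strand and 95 bases before it on the plus strand. SP5 holds the TCF/LEF motif 3 times, at 147, 109 and 83 bases before its start, and FRZB neither. Over 35116 promoter windows of this length, 14% held the TEAD motif, 12.9% the TCF/LEF motif and 2.08% both. For 29 Wnt genes the table held 35 windows, none of them for DKK2, FZD10 or NKD1. Of these 35 windows 2 held the TEAD motif, 2 the TCF/LEF motif and 1 both. DKK1 was the only one of the 29 genes with both motifs. RNF43 was the other one with a TEAD motif, which it held 2 times in 1 of its windows. A match is a description of letters in a short window, and its part in the levels of RNA was not tested.

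DKK2, a relative of DKK1 that also binds the co-receptors, had 2.42, 2.66 and 3.29 CPM in diffuse and 4.58, 4.47 and 2.06 in condensed cells. DKK2 in no-mCherry cells was at 1.78, 2.78 and 2.57 CPM with rapamycin and 2.27, 3.70 and 1.99 with DMSO, and eGFP cells had 1.75, 0.295 and 1.25. All 12 fusion libraries were above eGFP, where the second library, with 5 counts, was far below the others. The log2 fold change was 1.36 in diffuse (SE 0.41, adjusted p = 0.0192, edgeR) and 1.77 in condensed cells (SE 0.41, adjusted p = 0.00246). In no-mCherry cells it was 1.13 with rapamycin (SE 0.42, adjusted p = 0.0712) and 1.29 with DMSO (SE 0.42, adjusted p = 0.0455). Only the condensed call was kept under all 11 alternatives, and without the second eGFP library the diffuse and no-mCherry DMSO calls were lost.

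FRZB, a secreted Frizzled-related protein that binds Wnt ligands, was counted 2 to 25 times in a library. It had 1.38, 1.36 and 0.594 CPM in diffuse, 0.964, 0.884 and 0.772 in condensed, 0.611, 0.354 and 0.656 in no-mCherry rapamycin, 0.550, 0.979 and 0.702 in no-mCherry DMSO and 0.312, 0.177 and 0.132 in eGFP cells. Every fusion library was above every eGFP library, and the log2 fold change was 2.36 in diffuse (SE 0.55, adjusted p = 0.00307, edgeR) and 2.04 in condensed cells (SE 0.56, adjusted p = 0.00914). It came to 1.35 in no-mCherry cells with rapamycin (SE 0.59, adjusted p = 0.124) and 1.82 with DMSO (SE 0.57, adjusted p = 0.0383). The SPARK-OFF calls held under all 11 alternatives, and the no-mCherry DMSO call was lost under 5 of 10, at an adjusted p of 0.0973 without the third library.

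DKK3, a divergent member of the Dickkopf family, had 6.80, 4.84 and 5.43 CPM in diffuse and 6.22, 3.92 and 4.44 in condensed cells. For DKK3, the no-mCherry libraries had 7.39, 8.35 and 8.26 CPM with rapamycin and 7.15, 7.40 and 8.25 with DMSO, and eGFP cells had 12.7, 6.54 and 8.45. The condensed libraries lay below all eGFP libraries and the diffuse ones overlapped them, at log2 fold changes of -0.92 (adjusted p = 0.00297, edgeR) in condensed and -0.70 (adjusted p = 0.0184) in diffuse cells, a diffuse call lost under 3 of 11 alternatives. The no-mCherry cells differed from eGFP by -0.21 with rapamycin and -0.28 with DMSO and were not called. SFRP1, a secreted Frizzled-related protein, averaged 3.36 ± 0.551 CPM in diffuse, 2.63 ± 0.726 in condensed, 3.27 ± 0.653 in no-mCherry rapamycin, 3.91 ± 1.20 in no-mCherry DMSO and 4.47 ± 0.606 in eGFP cells (SD, n = 3 each). It was lower in condensed cells (3.42, 2.49 and 1.99 CPM, against 4.75, 3.77 and 4.88 in eGFP cells), at -0.74 (adjusted p = 0.0349, edgeR), a call lost under 4 of 11 alternatives. KREMEN1, which helps DKK1 to remove LRP6 from the membrane, was lower in no-mCherry DMSO cells alone (-0.39, adjusted p = 0.0394), and without the third library the value was -0.25 (adjusted p = 0.206). NOTUM, an enzyme that removes the lipid from Wnt proteins, was not called, at -0.77 to 0.05.

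Among the feedback genes inside the cell, NKD1 was lower in all 4 fusion groups and NKD2 in all but the condensed cells, while AXIN2 was not called. Of the 6 tested genes, 0 were higher in any group, and 2 were lower in diffuse, 1 in condensed, 3 in no-mCherry rapamycin and 2 in no-mCherry DMSO cells over eGFP. NKD1, a Dishevelled-binding protein that dampens Wnt signalling and is a known beta-catenin target, had 8.59, 10.7 and 10.3 CPM in diffuse and 8.05, 10.3 and 7.72 in condensed cells. The no-mCherry line had NKD1 at 10.4, 8.30 and 10.4 CPM with rapamycin and 10.8, 9.95 and 8.25 with DMSO, and eGFP cells had 13.6, 14.1 and 16.5. All fusion libraries were below eGFP, by log2 fold changes of -0.57 in diffuse (SE 0.15, adjusted p = 0.00847, edgeR) and -0.76 in condensed cells (SE 0.16, adjusted p = 0.000848). In no-mCherry cells it was -0.60 with rapamycin (SE 0.15, adjusted p = 0.01003) and -0.61 with DMSO (SE 0.15, adjusted p = 0.0128). Under the 11 alternatives the NKD1 call was lost in 1 in diffuse, 0 in condensed, 2 in no-mCherry rapamycin and 3 in no-mCherry DMSO cells. The no-mCherry DMSO value was -0.51 (adjusted p = 0.0671, edgeR) without the third library.

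NKD2, its paralog, had 8.94, 6.09 and 11.1 CPM in diffuse and 12.2, 13.6 and 9.45 in condensed cells. NKD2 in no-mCherry cells was at 9.94, 9.06 and 10.6 CPM with rapamycin and 8.80, 11.5 and 7.96 with DMSO, and eGFP cells had 15.99, 14.3 and 14.98. It too was below eGFP in all 12 fusion libraries. The log2 fold change was -0.78 in diffuse (SE 0.18, adjusted p = 0.00341, edgeR) and -0.35 in condensed cells (SE 0.18, adjusted p = 0.157). It came to -0.61 in no-mCherry cells with rapamycin (SE 0.18, adjusted p = 0.0250) and -0.67 with DMSO (SE 0.18, adjusted p = 0.0198). Only the diffuse call was kept under all 11 alternatives, and without the third no-mCherry DMSO library that group was at -0.56 with an adjusted p of 0.0931. AXIN2, the destruction complex scaffold most often used as a readout of beta-catenin activity, averaged 11.2 ± 1.03 CPM in diffuse, 10.8 ± 1.02 in condensed, 10.2 ± 0.394 in no-mCherry rapamycin, 8.69 ± 2.07 in no-mCherry DMSO and 9.78 ± 1.79 in eGFP cells (SD, n = 3 each). Its log2 fold changes over eGFP were 0.19 in diffuse (95% interval -0.15 to 0.54) and 0.15 in condensed cells (-0.20 to 0.49). In no-mCherry cells it was 0.06 with rapamycin (-0.29 to 0.40) and -0.17 with DMSO (-0.52 to 0.19). AXIN1 was lower in no-mCherry rapamycin cells (-0.33, adjusted p = 0.0125, edgeR), a call lost under 3 of 11 alternatives. RNF43 and ZNRF3 were not called over eGFP, at -0.32 to 0.48. AXIN2 and RNF43 each overlap another annotated protein-coding gene on the same strand, over 23547 and 63920 bases. How reads in these stretches were counted is not given, and no strand setting would tell them apart.

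Among the nuclear effectors, TCF7L2 was higher in diffuse cells and LEF1 lower and CTNNB1 higher in condensed cells, while TCF7 and TCF7L1 were not called, at -0.38 to -0.22. Of the 5 genes, 1 was called in diffuse, 2 in condensed and 0 in each no-mCherry group over eGFP, where 0 also had an unadjusted p under 0.05 and DESeq2 called 0. TCF7L2, a DNA-binding partner of beta-catenin, had 38.3, 31.2 and 29.8 CPM in diffuse and 21.7, 26.1 and 26.5 in condensed cells. For TCF7L2, the no-mCherry libraries had 27.2, 21.6 and 22.8 CPM with rapamycin and 25.4, 26.7 and 20.4 with DMSO, and eGFP cells had 18.9, 23.8 and 23.3. The diffuse libraries were above the other 12, with a log2 fold change over eGFP of 0.59 (SE 0.13, adjusted p = 0.00260, edgeR) that was kept under all 11 alternatives. Over condensed cells it was 0.42 (SE 0.13) at an unadjusted p of 0.00427 and an adjusted p of 0.501. CTNNB1, beta-catenin itself, averaged 935 ± 22.2 CPM in diffuse, 993 ± 54.8 in condensed, 907 ± 81.8 in no-mCherry rapamycin, 935 ± 141 in no-mCherry DMSO and 821 ± 71.9 in eGFP cells (SD, n = 3 each), and the condensed difference of 0.27 (adjusted p = 0.0486, edgeR) was lost under 5 of 11 alternatives. LEF1, which is known as both a partner and a target of beta-catenin, averaged 16.5 ± 0.925 CPM in diffuse, 13.8 ± 2.19 in condensed, 19.5 ± 1.20 in no-mCherry rapamycin, 16.7 ± 3.42 in no-mCherry DMSO and 19.6 ± 1.17 in eGFP cells (SD, n = 3 each). It was lower in condensed cells, at -0.51 (adjusted p = 0.0107, edgeR), a call lost under 1 of 11 alternatives.

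DKK1 was lower in diffuse than in condensed cells, and no other Wnt gene passed the test. Between diffuse and condensed cells 0 of the 43 genes were higher and 1 lower, where 0.130% of all genes were called, 0.0381% higher and 0.0924% lower. DKK1 had 23.2, 25.1 and 24.6 CPM in diffuse cells, against 42.7, 34.7 and 46.6 CPM in condensed cells, which is 0.589-fold (log2 fold change -0.76, SE 0.13, 95% interval -1.04 to -0.49, adjusted p = 0.00817, edgeR). It ranked 15th by p and 960th by size of change among the genes tested, and was 1 of 17 genes called lower. The fold change was -0.88 to -0.67 over the alternatives, and leaving out any 1 library other than the second condensed one took the adjusted p to 0.0538 to 0.135. MAML2 and YAP1, whose counts include the transgene, were higher in diffuse cells in all libraries. MAML2 had 504 to 563 CPM in diffuse and 395 to 442 in condensed cells, and YAP1 245 to 280 and 181 to 213. The log2 fold changes were 0.38 for MAML2 (unadjusted p = 0.000800, adjusted p = 0.209, edgeR) and 0.41 for YAP1 (unadjusted p = 0.000856, adjusted p = 0.215). The part of this difference in the DKK1 level was not tested.

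A further 4 Wnt genes had an unadjusted p under 0.05 between diffuse and condensed cells: WNT9A at 0.57, ROR2 at 0.51, TCF7L2 at 0.42 and NKD2 at -0.43. Over all genes 5.48% had such a p. Of the 43 log2 fold changes 32 were above 0, with a median of 0.11 beside -0.01 over all genes, and all 9 ligands were among them, at 0.04 to 0.70. In the no-mCherry line under rapamycin over DMSO 27 of the 43 and 7 of the 9 ligands were above 0, with a median of 0.08 over the 43 genes. FZD6 at -0.08 (95% interval -0.43 to 0.27) and FZD10 at -0.03 (-0.65 to 0.60) did not differ by the test between diffuse and condensed cells, both having differed from eGFP.

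The no-mCherry line gives the response to rapamycin without the partner that dissolves condensates. In those cells DKK1 had 16.1, 20.8 and 21.0 CPM with rapamycin, against 20.3, 16.6 and 21.3 CPM with DMSO, a log2 fold change of -0.01 (SE 0.14, 95% interval -0.29 to 0.27, adjusted p = 0.983, edgeR). In that line 0 of the 43 genes passed edgeR's test, where 1.62% of all genes were called, 0.451% higher and 1.17% lower. An unadjusted p under 0.05 was reached by 8 members and by 14.9% of all genes. DESeq2 called 1 member, FZD2, which was higher, and its share over all genes is not given. The lowest p belonged to FZD2, a receptor for WNT5A and WNT3A, with 38.9, 39.8 and 44.4 CPM under rapamycin, against 34.8, 31.7 and 22.5 under DMSO (log2 fold change 0.47, SE 0.13, adjusted p = 0.0620). Without the third DMSO library FZD2 was at 0.30 with an adjusted p of 0.197. The other 7 were WNT6 (1.16), WNT3A (0.80), NOTUM (0.75), FZD10 (0.55), LRP5 (0.29), FZD7 (0.23) and ZNRF3 (-0.29), and the third DMSO library was the lowest of its group for all 8 of these genes.

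The difference between both responses, which takes what rapamycin did in the no-mCherry line from what it did in the SPARK-OFF line, was -0.75 for DKK1 (SE 0.19, 95% interval -1.15 to -0.36) with an unadjusted p of 0.000604 and an adjusted p of 0.178, so it did not pass over all genes. Without the third no-mCherry DMSO library it was -0.83 with an adjusted p of 0.0432. No member passed when any other compared library was left out. With all libraries and the filter on low counts no member passed in edgeR or in DESeq2, and edgeR called 0.0979% of all genes, 0.0272% higher and 0.0707% lower. Without the filter DKK1 passed, at -0.75 with an adjusted p of 0.0416. An unadjusted p under 0.05 was reached by 7.42% of all genes and by 4 members, DKK1, WNT9A (0.81), TCF7L2 (0.44) and ZNRF3 (0.43).

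**Figure D4:**
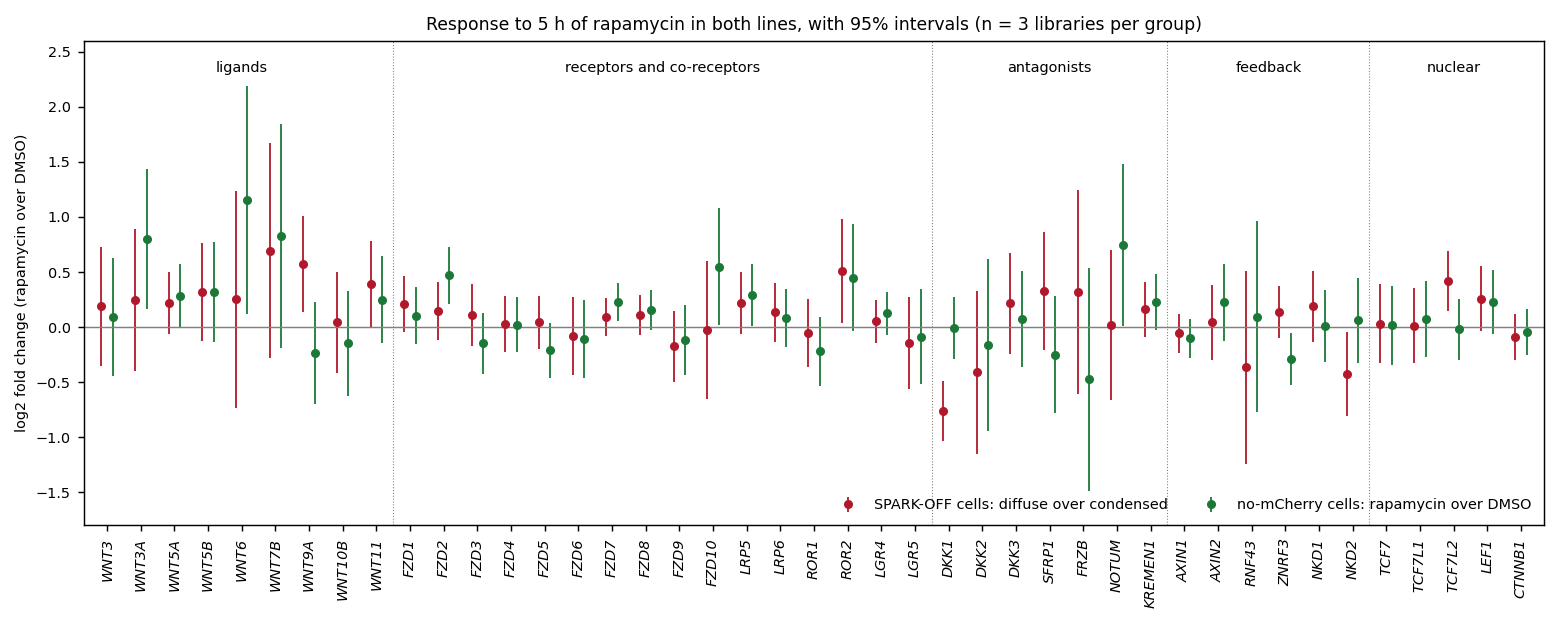
Log2 fold change of the 43 tested Wnt genes after 5 h of rapamycin over DMSO in the SPARK-OFF line (diffuse over condensed) and in the no-mCherry line, with 95% intervals of the edgeR fit, by role. DKK1 is at -0.76 in the SPARK-OFF line and -0.01 in the no-mCherry line, and the widest intervals belong to genes with few counts such as WNT6, WNT7B and FRZB.

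Set side by side under the same drug, the SPARK-OFF line had less FZD10 than the no-mCherry line under both, more WNT9A under rapamycin and more DKK1 under DMSO. MAML2 RNA was also higher in the SPARK-OFF line, by 1.15 on the log2 scale under rapamycin (adjusted p = 8.53e-08, edgeR) and by 0.91 under DMSO (adjusted p = 2.13e-06), and its part was not tested. The mCherry partner, which is recruited only under rapamycin, and the separate line cannot be told apart. Under rapamycin, diffuse cells had 3 Wnt genes higher and 2 lower than no-mCherry cells, where 14% of all genes were called, 7.07% higher and 6.88% lower. WNT9A had 5.48, 4.95 and 6.299 CPM in diffuse cells, against 2.89, 2.99 and 2.63 CPM in no-mCherry cells with rapamycin (0.98, SE 0.21, adjusted p = 0.00345), and FZD10 had 3.75, 2.501 and 1.82 CPM, against 9.05, 6.48 and 10.4 CPM (-1.71, SE 0.27, adjusted p = 0.000199). Both calls were kept under all 11 alternatives. By the rule of the study 2 members were called here, beside 5.58% of all genes.

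TCF7L2 was higher by 0.47 (adjusted p = 0.0184, edgeR) and ZNRF3, a ligase that removes Frizzled receptors, by 0.41 (adjusted p = 0.0187), with 42.0, 37.1 and 38.5 CPM in diffuse cells, against 33.1, 26.7 and 28.8 CPM in no-mCherry cells with rapamycin. FZD2 was lower, at -0.42 (adjusted p = 0.0280), with 33.0, 31.8 and 27.5 CPM in diffuse cells, against 38.9, 39.8 and 44.4 CPM. The groups did not overlap for any of these 3, and each call was lost under 3 or 4 of 11 alternatives. DKK1 was above no-mCherry cells with rapamycin in all 3 diffuse libraries, at 0.34 (SE 0.13), but its adjusted p was 0.101.

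Under DMSO, condensed cells had 1 Wnt gene higher and 1 lower than no-mCherry cells, where 7.03% of all genes were called, 3.78% higher and 3.25% lower. DKK1 had 42.7, 34.7 and 46.6 CPM in condensed cells, against 20.3, 16.6 and 21.3 CPM in no-mCherry cells with DMSO, 2.13-fold (log2 fold change 1.09, SE 0.13, adjusted p = 1.27e-05, edgeR), kept under all 11 alternatives. FZD10 had 2.55, 3.65 and 1.80 CPM, against 7.35, 6.80 and 3.63 CPM (-1.14, SE 0.28, adjusted p = 0.0171), with 1 overlapping pair of libraries and a call lost under 5 of 11 alternatives. Without the third no-mCherry DMSO library FZD10 was at -1.39 (adjusted p = 0.00113), DKK1 at 1.16 (adjusted p = 4.95e-06), and FZD6 (0.38) and LEF1 (-0.43) were called as well. By the rule of the study 3 members were called, beside 4.51% of all genes, with DKK3 (-0.64, adjusted p = 0.0776, edgeR) added to DKK1 and FZD10.

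The rest of the Wnt pathway was taken from lists of 88 further genes, of which 75 were tested. Over eGFP, 10 were higher and 17 lower in diffuse cells, 8 higher and 22 lower in condensed cells, 7 higher and 9 lower in no-mCherry cells with rapamycin and 4 higher and 11 lower in no-mCherry cells with DMSO, with median log2 fold changes of -0.02 in diffuse, -0.11 in condensed, -0.05 in no-mCherry rapamycin and -0.09 in no-mCherry DMSO cells. Over all genes the called share was 23.9% in diffuse, 27.1% in condensed, 16.4% in no-mCherry rapamycin and 13.5% in no-mCherry DMSO cells. Between diffuse and condensed cells 0 of the 75 passed edgeR's test, where 0.130% of all genes were called. An unadjusted p under 0.05 was reached by 5 of them and by 5.48% of all genes, and DESeq2 called 0. Between no-mCherry cells with rapamycin and with DMSO 0 passed, where 1.62% of all genes were called by edgeR. There 12 had an unadjusted p under 0.05, as did 14.9% of all genes. DESeq2 called 3, but its share over all genes is not given, so that count cannot be weighed.

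Among other secreted modulators and agonists, diffuse cells had 3 of 11 higher and 1 lower, and condensed cells 2 higher and 1 lower. SOST, the sclerostin gene whose protein blocks LRP5 and LRP6 in bone, was counted 36 times over the diffuse, 43 over the condensed, 5 over the no-mCherry rapamycin and 17 over the no-mCherry DMSO libraries and 0 times over the eGFP libraries. With the eGFP group set at 3 counts, SOST came to 9.90-fold in diffuse, 12.9-fold in condensed, 1.45-fold in no-mCherry rapamycin and 5.33-fold in no-mCherry DMSO cells. These ratios leave out the counting error of the fusion groups. In no-mCherry rapamycin cells the lowest library had 0 counts, as in eGFP cells, and SOST was not called. The gene was called by edgeR in diffuse (adjusted p = 0.00208), condensed (0.000741) and no-mCherry DMSO cells (0.0209). In no-mCherry DMSO cells 1 library held 12 of the 17 counts and the lowest library held 1. GPC3, a glypican that modulates Wnt and Hedgehog ligands, averaged 95.4 ± 6.65 CPM in diffuse, 102 ± 6.32 in condensed, 118 ± 6.56 in no-mCherry rapamycin, 105 ± 1.56 in no-mCherry DMSO and 55.2 ± 4.07 in eGFP cells (SD, n = 3 each). It was called higher in all 4 fusion groups at 0.79 to 1.09. KREMEN2 was lower in all 4 groups, at -0.81 to -0.63.

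Among 7 other ligands and secretion genes, WNT2 was higher (1.97 in diffuse and 1.85 in condensed cells), on 1 to 31 counts in a library. WNT2 averaged 1.16 CPM in diffuse, 1.05 in condensed, 1.04 in no-mCherry rapamycin, 0.801 in no-mCherry DMSO and 0.287 in eGFP cells. PORCN, the enzyme that adds the lipid Wnt proteins need for release, was lower (-0.71 in diffuse cells, adjusted p = 0.00138, and -0.78 in condensed cells, adjusted p = 0.000560, edgeR), with WNT2B and WNT8B lower in condensed cells. In the list of 17 destruction complex and cytoplasmic transducer genes, diffuse cells had 2 higher and 3 lower, and condensed cells 1 higher and 3 lower. GSK3A was higher and DVL1, CXXC4 and AMER1 lower in both, with APC2 higher in diffuse cells, at -0.92 to 0.44. Of 14 nuclear cofactors, diffuse cells had 0 higher and 4 lower, and condensed cells had 1 higher and 6 lower. The corepressors TLE1 and TLE2 were lower in both (-0.41 and -0.91 in diffuse, -0.49 and -0.98 in condensed cells). Of 13 genes of planar cell polarity and the noncanonical branch, PRICKLE2 was higher (1.37 in diffuse, 1.26 in condensed cells) and DAAM2, PTK7 and CELSR1 lower in both.

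The other genes known as beta-catenin targets did not move one way. Of the 13 tested, 2 were higher and 5 lower in diffuse cells, 1 higher and 4 lower in condensed cells, 4 higher and 1 lower in no-mCherry rapamycin and 1 higher and 2 lower in no-mCherry DMSO cells. BMP4, a ligand of the bone morphogenetic protein family, averaged 34.7 CPM in diffuse, 39.5 in condensed, 28.4 in no-mCherry rapamycin, 24.6 in no-mCherry DMSO and 9.95 in eGFP cells. It was higher in all 4 fusion groups, by 1.80 in diffuse, 1.99 in condensed, 1.51 in no-mCherry rapamycin and 1.30 in no-mCherry DMSO cells on the log2 scale (highest adjusted p = 2.37e-07, edgeR). CCND1, the cyclin that drives entry into S phase, averaged 17.7 CPM in diffuse, 15.8 in condensed, 13.7 in no-mCherry rapamycin, 15.3 in no-mCherry DMSO and 27.6 in eGFP cells. It was lower in all 4, at -0.63 in diffuse, -0.81 in condensed, -1.01 in no-mCherry rapamycin and -0.85 in no-mCherry DMSO cells (highest adjusted p = 0.00875). In condensed over no-mCherry DMSO cells BMP4 was higher, at 0.68 (adjusted p = 0.000610, edgeR), and ID2 was lower, at -0.60 (adjusted p = 0.00116).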

How the data were processed

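The deposited table held raw gene counts, which the authors made by trimming reads with fastp and aligning them to hg38 with STAR; the submitters' notes also name FastQC, HTSeq and edgeR. The annotation, the strand setting and tool versions were not given in the sources used here. Symbols came from GENCODE and matched 61369 of 61533 identifiers.

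Counts were tested in R 4.3.3 with edgeR 4.0.16 (limma 3.58.1) after filterByExpr and TMM scaling (factors 0.901 to 1.05, biological coefficient of variation 0.111), with all 5 groups in 1 quasi-likelihood fit. A gene was called at a Benjamini-Hochberg adjusted p under 0.05 over 18391 genes. The standard error was the size of the log2 fold change divided by the square root of F, and intervals are 95%. Genes given in every library were those called with a log2 fold change of at least 0.58 in either direction and a higher-group mean of 1 CPM or more, in 1 or more of 9 comparisons. The rule of the study (p under 0.01, 0.58 on the log2 scale, FDR under 0.1) was an alternative, as were DESeq2 1.42.0, its size factors, no filter, a replicate block, fits on the compared groups alone and leaving out each library. The fit was tested on simulated data.

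The members and lists were chosen with earlier results of these data known. For the no-mCherry DMSO libraries the titles and treatment labels give DMSO and a description gives rapamycin, and the titles were followed. A result for 1 gene of the pathway lists is not reported here.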

Additional observations from a re-analysis of the deposited data

Results flagged for a closer look

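The SPARK-OFF and no-mCherry lines differed under the same drug, by edgeR's adjusted p, in 7 results for Wnt genes, and MAML2 RNA was higher in the SPARK-OFF line in both settings. Under DMSO, DKK1 was higher in condensed than in no-mCherry cells by 1.09 on the log2 scale (adjusted p = 1.27e-05), with higher values in 3 of 3 condensed libraries. Under DMSO, FZD10 differed by -1.14 (adjusted p = 0.0171) between condensed and no-mCherry cells, with overlapping libraries. Under rapamycin, FZD10 differed by -1.71 (adjusted p = 0.000199) between diffuse and no-mCherry cells, and 3 of 3 diffuse libraries were lower. WNT9A was higher in 3 of 3 diffuse libraries, by 0.98 (adjusted p = 0.00345). TCF7L2 was higher in 3 of 3, by 0.47 (adjusted p = 0.0184). ZNRF3 was higher in 3 of 3, by 0.41 (adjusted p = 0.0187). FZD2 was lower in 3 of 3, at -0.42 (adjusted p = 0.0280).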

How the results depend on the processing

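Of 72 calls of a Wnt gene in a comparison, 32 were kept under each of the alternatives apart from the rule of the study, which was run on counts only, and 40 were lost under at least 1, most often when 1 library was left out. Leaving out 1 library gave 13 to 16 called genes for diffuse over eGFP (19 with all), 13 to 17 for condensed over eGFP (20), 4 to 10 for no-mCherry rapamycin over eGFP (11), 6 to 17 for no-mCherry DMSO over eGFP (14), 0 to 1 for diffuse over condensed (1), 0 to 1 for no-mCherry rapamycin over DMSO (0), 0 to 1 for the difference between both responses (0), 2 to 5 for diffuse over no-mCherry rapamycin (5) and 1 to 4 for condensed over no-mCherry DMSO (2). The lowest counts came without the third condensed library (13, condensed over eGFP), the third no-mCherry DMSO or the third eGFP library (6 each, no-mCherry DMSO over eGFP) and the second no-mCherry rapamycin library (4, no-mCherry rapamycin over eGFP). The rule of the study gave 12 for condensed over eGFP, 7 for no-mCherry rapamycin over eGFP and 2 for diffuse over no-mCherry rapamycin. With only the compared groups in the fit the count was 4 for no-mCherry DMSO over eGFP, 1 for condensed over no-mCherry DMSO and 9 for diffuse over no-mCherry rapamycin. Without the filter it was 1 for no-mCherry rapamycin over DMSO, 1 for the difference between both responses and 5 for condensed over no-mCherry DMSO, and DESeq2 gave 1 for no-mCherry rapamycin over DMSO. The fits that left libraries out held fewer samples, and the cause of these differences was not tested. FZD6 in condensed over no-mCherry DMSO cells, at -0.01, changed sign with the replicate block (0.025), without condensed replicate 2 (0.04) and without no-mCherry DMSO replicate 3 (0.38), and ranged over -0.19 to 0.38 with 1 library left out. Same-numbered libraries did not deviate together (30 pairs, r = -0.14 to 0.099), which cannot show whether they shared a culture or a preparation. With the replicate block the counts were 19 for diffuse over eGFP, 19 for condensed over eGFP, 11 for no-mCherry rapamycin over eGFP, 12 for no-mCherry DMSO over eGFP, 1 for diffuse over condensed, 0 for no-mCherry rapamycin over DMSO, 0 for the difference between both responses, 5 for diffuse over no-mCherry rapamycin and 2 for condensed over no-mCherry DMSO. WNT6, with 5 to 48 counts in a library, and FRZB, with 2 to 25, have the least counting precision of the genes given in every library.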
